A study of Rattus norvegicus with 3 samples.

Results

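Among 24664 single nuclei of the rat heart apex, 416 carried transcripts of macrophage genes but almost none of the scavenger receptor genes Cd163 and Mrc1. They are called here the Cd163/Mrc1-low nuclei. A nucleus was counted when it held at least 4 unique molecular identifiers (UMIs, each standing for 1 captured RNA molecule) of the macrophage genes Csf1r, Tbxas1, Msr1, Ptpro, Aoah, Rbpj and Cd68 combined, and at most 1 UMI of Cd163, Mrc1 and F13a1. It also had to hold at most 3 UMIs of the neutrophil genes S100a8, S100a9 and Csf3r, less than 0.4% of its UMIs from the cardiomyocyte genes Actn2, Rbm20, Cmya5 and Mlip, and at most 1 UMI of each of 3 sets of genes of fibroblasts (Dcn, Pdgfra, Bicc1), endothelial cells (Flt1, Ptprb, Cyyr1) and T cells (Cd3e, Skap1, Themis). The members were thus chosen by the measured UMI counts of these genes. A second set, the 464 Cd163/Mrc1 macrophages, met every other condition but held at least 2 UMIs of Cd163, Mrc1 and F13a1.

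The rats were 12 months old and were either wild-type littermates (WT) or carried 1 of 2 deletions in Dmd, the gene of dystrophin, made in the Sprague Dawley strain. BMD rats, a model of Becker muscular dystrophy, carry an in-frame deletion that leaves a shortened dystrophin. DMD rats, a model of Duchenne muscular dystrophy, carry a deletion that disrupts the reading frame. Both deletions are present in all cells, not only in muscle, and nuclei from the apex with parts of both ventricles and the septum were sorted by DNA stain, without selection of leukocytes. Each genotype was measured in 1 library, so every difference between genotypes is a difference between 3 libraries, and all intervals (95%) cover counting error only. No test between genotypes was run.

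Heart macrophages come from cells seeded before birth and from blood monocytes that enter the tissue. Resident macrophages of vessel and interstitial niches typically express Cd163, Mrc1, Lyve1 and Folr2 and take up debris and hyaluronan. Monocytes, macrophages recently derived from them, lipid-loaded macrophages rich in osteopontin (Spp1), and antigen-presenting dendritic cells express little or no Cd163. All of these cells share genes of the myeloid lineage such as Csf1r, the receptor for the growth factor on which macrophages depend.

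The 3 libraries did not stand on the same footing, and this bears on each result. The Cd163/Mrc1-low nuclei numbered 203 (WT), 123 (BMD) and 90 (DMD), with 240175, 183953 and 122094 UMIs in all. Their median depths of 1082, 1190 and 1218 UMIs were alike. The share of UMIs from mitochondrial genes was not: its median was 7.13% in the WT library, against 1.07% for BMD and 1.47% for DMD, and 123 of the WT, 24 of the BMD and 26 of the DMD nuclei were over 5%. Among all nuclei the medians were 0.949%, 0.664% and 1.24%, so the WT library as a whole did not have the high value. The Cd163/Mrc1 macrophages had medians of 1.14%, 0.379% and 0.577%. Free RNA was estimated from 6 heart muscle genes (Myh6, Myh7, Tnnt2, Tnni3, Pln and Ryr2), set against their level in barcodes with at most 50 UMIs. By this estimate it made up 5.66% of the UMIs of the Cd163/Mrc1-low nuclei of WT, against 14.6% for BMD and 7.86% for DMD. The largest BMD nucleus held 11859 UMIs, 6.45% of the BMD sum, and 259 of the 276 BMD UMIs of Nppa, which encodes the atrial natriuretic peptide of heart muscle cells. Values that rest on this nucleus are given without it as well. No barcode sequence was shared between the Cd163/Mrc1-low nuclei of different libraries (0 in each of 3 pairs), against 20, 12 and 12 shared barcodes among all nuclei.

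The rule genes had the levels that the rule imposed. Given as counts per 1000000 UMIs summed over the nuclei of a library (CPM), Csf1r was at 641, 614 and 541 CPM in the WT, BMD and DMD libraries, against 862, 820 and 1005 CPM in the Cd163/Mrc1 macrophages. Mrc1 was at 91.6, 169 and 147 CPM, against 3072, 2831 and 2966 CPM. Cd163 was at 8.33, 5.44 and 41.0 CPM, below or near the 54.6, 34.7 and 59.2 CPM of free RNA. The thresholds cut through a continuum. The macrophage genes summed to 3 UMIs in 109 nuclei just outside the rule and to 4 UMIs in 86 just inside it, and Cd163, Mrc1 and F13a1 summed to 0 UMIs in 327 members, to 1 UMI in 89 members and to 2 UMIs in 62 nuclei just outside. Slc9a9, an endosomal sodium and proton exchanger, was at 194, 1441 and 666 CPM (WT, BMD, DMD) in members with 0 UMIs of those 3 genes, at 841, 1768 and 1658 CPM in members with 1 UMI, and at 1958, 4775 and 3563 CPM in nuclei with 2 UMIs. Spp1 ran the other way, at 4930, 1626 and 4098 CPM with 0 UMIs, 2551, 1511 and 858 CPM with 1 UMI and 1602, 458 and 110 CPM with 2 UMIs.

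Markers that the rule did not use showed that the nuclei were leukocytes of the myeloid lineage, but not macrophages alone. The summed level of 18 further macrophage genes was 5650, 5800 and 5356 CPM in the WT, BMD and DMD libraries, against 6955, 7491 and 7776 CPM in the Cd163/Mrc1 macrophages and 959, 876 and 929 CPM in endothelial nuclei. In the few neutrophil nuclei it was 6571, 12564 and 8944 CPM, above the Cd163/Mrc1-low nuclei of each library, so the list does not set macrophages apart from neutrophils. The most abundant of them was Lyn, a kinase of immune receptors. Of the 13 listed leukocyte genes, 11 were found in the files, and their sum was 9531, 10644 and 10770 CPM, against 365, 348 and 455 CPM in endothelial nuclei. Ptprc, the pan-leukocyte phosphatase CD45, had at least 1 UMI in 75.4%, 65.9% and 57.8% of the nuclei (WT, BMD, DMD) once thinned to 500 UMIs, against 2.87%, 1.67% and 3.47% of endothelial nuclei. Genes of classical monocytes summed to 5217, 2251 and 4611 CPM, against 1357, 480 and 672 CPM in the Cd163/Mrc1 macrophages and 5455, 14946 and 7586 CPM in neutrophil nuclei, and those of non-classical monocytes to 970, 582 and 868 CPM, against 269, 212 and 250 CPM. Of the listed lymphocyte genes, Cd3g and Lck of T cells and Cd79b and Ms4a1 of B cells were at 0 UMIs in all 3 libraries. Cd3d, Cd79a and Pax5 had 1 UMI each, Cd2 had 3 and Cd8a had 13. Cd3e was capped by the rule and is not counted here. Other listed genes were present, among them Ebf1, Bank1 and Blk of the B cell list, the last with 13 UMIs. The rule itself capped some genes of other cell types, so those genes were left out of the sums that follow. The other 8 neutrophil genes summed to 24.98, 5.44 and 41.0 CPM, against 34.3, 26.8 and 211 CPM in free RNA, with Retnlg, Camp and Lcn2 at 0 UMIs. The other 6 cardiomyocyte genes found summed to 749, 2403 and 811 CPM, with Ryr2 the most abundant, against 13243, 16479 and 10310 CPM in free RNA. With the capped genes the cardiomyocyte sum in BMD was 2734 CPM, and 1546 CPM without the largest nucleus.

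The other lists were at low or shared levels. Conventional dendritic cell genes summed to 1020, 1234 and 1573 CPM (WT, BMD, DMD), against 828, 915 and 839 CPM in the Cd163/Mrc1 macrophages, and plasmacytoid dendritic cell genes to 500, 777 and 893 CPM, below the 3518, 4022 and 3326 CPM of endothelial nuclei. The 10 T cell genes outside the rule summed to 171, 190 and 229 CPM, with Cd4, which rat macrophages also express, the most abundant. B cell genes, with Ebf1 the most abundant, summed to 167, 299 and 295 CPM, below the 3925, 4519 and 3934 CPM of endothelial nuclei. Natural killer cell genes summed to 16.7, 136 and 81.9 CPM. Lymphocyte transcripts were thus sparse in each library. Mast cell genes summed to 16.7, 136 and 32.8 CPM, all from Kit, which also led the dendritic cell-like cluster described later. Outside the rule, 6 fibroblast genes summed to 637, 603 and 1343 CPM, 7 endothelial genes to 79.1, 136 and 401 CPM, pericyte or smooth muscle genes to 437, 114 and 188 CPM and Schwann cell genes to 20.8, 38.1 and 0 CPM. The last 4 of these sums lay below those in the free RNA of the same library, and their part in the results was not tested. The resident macrophage genes summed to 329, 848 and 516 CPM, against 3286, 4176 and 4380 CPM in the Cd163/Mrc1 macrophages, with the highest level in BMD.

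The Cd163/Mrc1-low nuclei made up 2.04% of the WT library (exact binomial interval 1.77 to 2.33). The BMD library held 1.81% (1.503 to 2.15) and the DMD library 1.14% (0.918 to 1.40). The share in DMD was 0.897 percentage points below that in WT (interval -1.26 to -0.530), while that in BMD was 0.231 points below it, with an interval that included 0 (-0.646 to 0.200). With no UMI of Cd163, Mrc1 and F13a1 allowed it was -0.479 points (-0.846 to -0.0981), and with counts from the aggregate -0.540 points (-0.935 to -0.130), and both intervals excluded 0. This order did not hold once nuclei with over 5% mitochondrial UMIs were removed. WT then had a share of 0.906% (0.719 to 1.13), with 1.63% (1.33 to 1.99) for BMD and 0.977% (0.753 to 1.25) for DMD. BMD was then 0.728 points above WT (0.364 to 1.12), and DMD 0.0709 points above it (-0.234 to 0.393), so both differences changed sign and that between DMD and WT no longer lay outside counting error, while that between BMD and WT now did. Of the Cd163/Mrc1-low nuclei and the Cd163/Mrc1 macrophages together, the former were 56.7% (WT), 38.8% (BMD) and 43.9% (DMD), and 39.8%, 34.5% and 37.2% without the nuclei over 5%. This share also moves with the Cd163/Mrc1 macrophages, which were 1.56% (WT), 2.85% (BMD) and 1.46% (DMD) of all nuclei. The part of the mitochondrial share in the difference between genotypes was not tested beyond this.

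**Figure D1:**
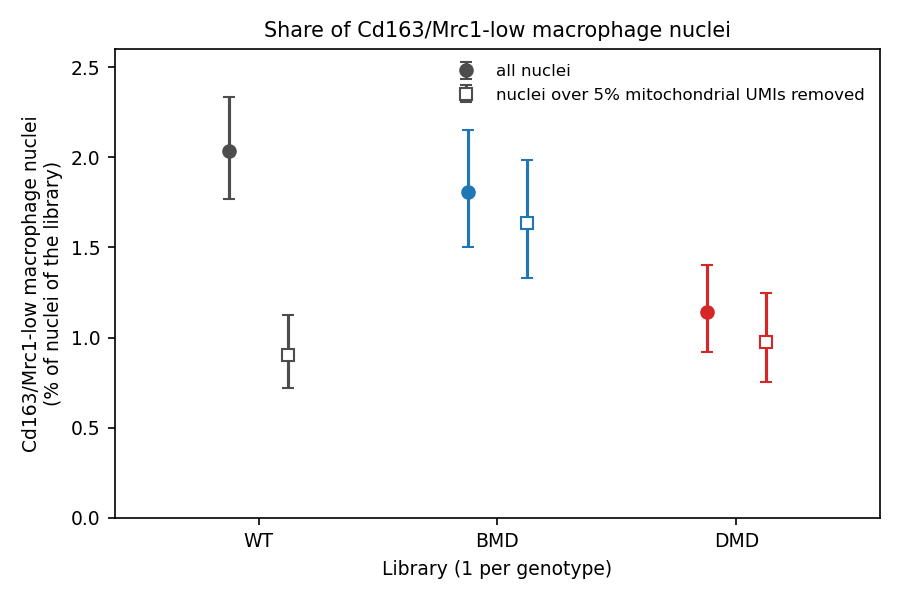
Share of Cd163/Mrc1-low nuclei among all nuclei of each library (y axis, percent; x axis, the 3 libraries, 1 per genotype), with all nuclei (filled circles) and without nuclei over 5% mitochondrial UMIs (open squares). Bars are exact 95% binomial intervals. The WT share fell from 2.04% to 0.906% between the settings, and those of BMD and DMD stayed within their intervals.

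Clustering the 416 nuclei alone, without the rule genes and the mitochondrial genes, gave 7 clusters, described here by the genes that lead them. Cluster 0 held 149 nuclei (39 from WT, 76 from BMD and 34 from DMD). Without the largest nucleus it was led by Slc9a9, Ppp2r2b (a regulatory subunit of protein phosphatase 2A), C1qc (a chain of complement C1q) and Gpc6 (a cell-surface proteoglycan). It also had the highest summed level of the resident macrophage genes, 1010 CPM against 284 CPM in the other members, with Folr2, Stab1, Igf1 and Selenop raised at least 2-fold. Mrc1 stood at 244 CPM in these nuclei. The cell division genes Mki67, Top2a and Cenpf were raised there too, and the division list summed to 756 CPM against 126 CPM elsewhere. Most UMIs of these 3 genes came from 1 BMD and 1 DMD nucleus: without this pair, chosen after its values were seen, 4 of 17 Mki67, 3 of 15 Top2a and 2 of 25 Cenpf UMIs were left, and the list summed to 374 CPM. With the largest nucleus the cluster was led by heart muscle genes such as Nppa, and it was left unnamed.

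Cluster 1 held 97 nuclei (71 from WT, 11 from BMD and 15 from DMD) and was led by Spp1 and by Gpnmb, a glycoprotein of lipid-loaded macrophages, with Anpep, Il1rn and Fam20c. Of the lipid-associated macrophage list, 11 of 19 genes were raised, with a summed level of 23143 CPM against 2757 CPM in the other members, and 7 of the 20 lysosome genes. Cluster 2 (36 nuclei) was led by Fcnb, Plac8 and Il1b, and cluster 4 (40 nuclei) by Vcan, Ccr1, Thbs1, Tgfbi and Fn1. Both met the criterion for classical monocyte-like, with 5 and 4 of 9 listed genes raised and summed levels of 11347 and 14706 CPM. They differed in that Fcnb, a ficolin of young myeloid cells, led the former, and matrix genes the latter. Cluster 5 (44 nuclei) was led by Adgre4, P2ry10 and Treml4, with 7 of 10 non-classical monocyte genes raised, and was non-classical monocyte-like. Cluster 6 (17 nuclei) was conventional dendritic cell-like, with 8 of 14 listed genes raised. Its leading genes included Clnk, Zfp366, Wdfy4 and Irf8, which act in antigen-presenting dendritic cells, and the MHC class II list summed to 12576 CPM against 2817 CPM elsewhere. The leading genes of cluster 3 (33 nuclei) included Rgs5 and Abcc9, genes of pericytes, with UMIs in 7 and 9 of the nuclei, and the MHC class II gene RT1-Bb, with UMIs in 22. Its MHC class II list summed to 9817 CPM and its pericyte list to 1343 CPM against 163 CPM in the other members, and it was left unnamed.

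**Figure D2:**
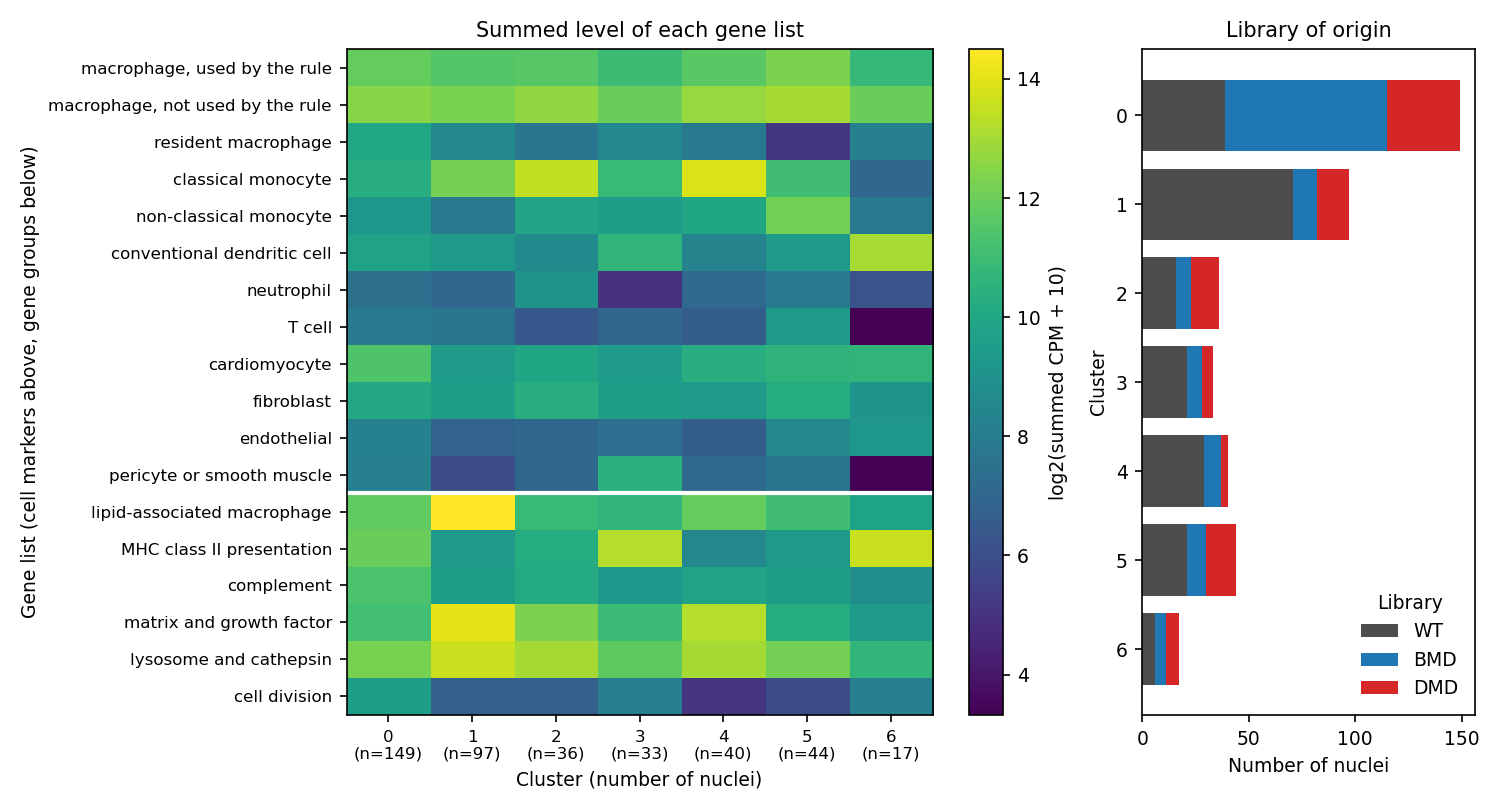
Left, summed level of each gene list (rows) in each of the 7 clusters of Cd163/Mrc1-low nuclei (columns, number of nuclei in brackets), as log2 of CPM plus 10. Right, the number of nuclei from each library in each cluster. The lipid-associated list peaked in cluster 1, the classical monocyte list in clusters 2 and 4, the non-classical list in cluster 5 and the MHC class II list in clusters 3 and 6.

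The label of macrophages was therefore not borne out for all of the nuclei, since clusters 2, 4, 5 and 6 carried markers of monocytes or dendritic cells. Clusters 0 and 3 were left unnamed, which does not itself count against the label. Cluster 0 had 5 of the 18 further macrophage genes raised (Adgre1, C1qa, C1qb, C1qc and Slco2b1), and cluster 3 had 0. In cluster 0, 4 of 11 resident macrophage genes were raised, beside 4 of 8 heart muscle genes. The sizes of the clusters are not compared between genotypes, because genes that define them also differed between the libraries. The largest single group was cluster 1 in WT (71 of 203 nuclei) and cluster 0 in BMD (76 of 123) and DMD (34 of 90), and a level summed over all Cd163/Mrc1-low nuclei mixes these. The clusters also differed in mitochondrial share, with medians of 0.685% in cluster 0, 8.27% in cluster 1, 7.89% in cluster 2, 7.37% in cluster 3, 10.8% in cluster 4, 2.09% in cluster 5 and 0.937% in cluster 6. Within cluster 1 they were 8.12%, 1.89% and 12.2% by library (WT, BMD, DMD).

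**Figure D3:**
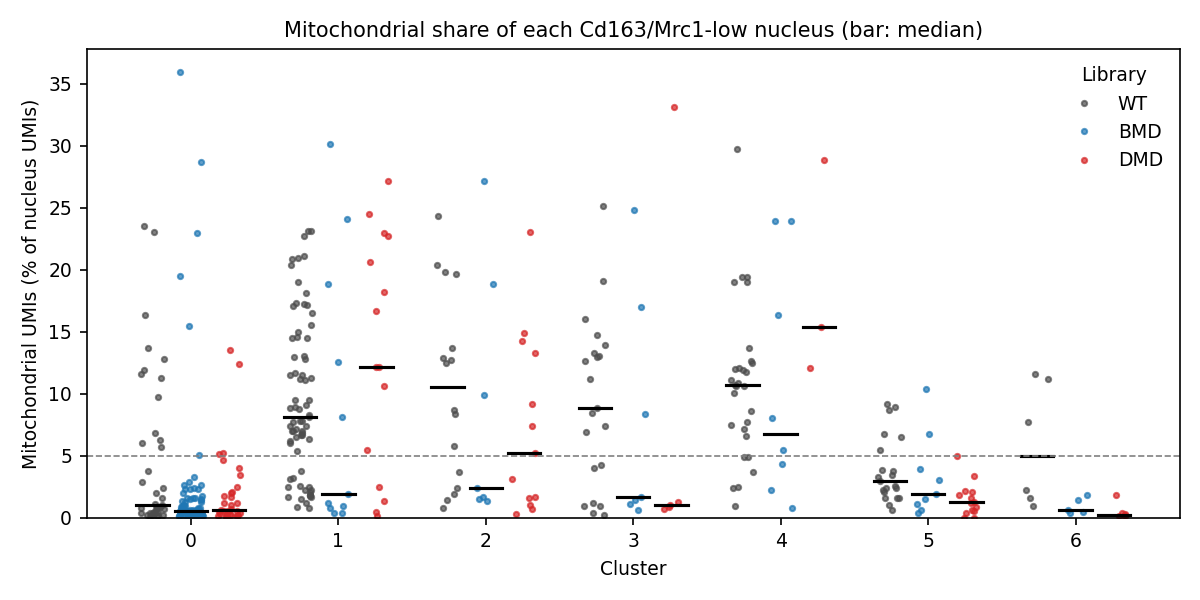
Mitochondrial share of the UMIs of each Cd163/Mrc1-low nucleus (y axis, percent) by cluster (x axis) and library (colours), with the median of each group as a black bar and the 5% limit as a dashed line. Nuclei of cluster 0 lie mostly under the limit, and those of clusters 1 to 4 lie on both sides of it.

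Set against the Cd163/Mrc1 macrophages of the same library, 65 of 2973 genes (2.19%) were more than 2-fold higher in the Cd163/Mrc1-low nuclei in all 3 libraries, and 99 (3.33%) more than 2-fold lower, on the scale of log2 of CPM plus 10. The rule had split the 2 sets by Cd163, Mrc1 and F13a1, so these values describe the split and nothing was tested. Without the nuclei over 5% mitochondrial UMIs, 31 genes were higher in all 3 libraries, and the 30 genes named here were all still past 2-fold. Spp1 (ENSRNOG00000043451), which encodes the secreted matrix protein osteopontin, was at 4588, 1582 and 3170 CPM in the WT, BMD and DMD libraries, against 806, 253 and 111 CPM in the Cd163/Mrc1 macrophages. The ratio was 5.69 (4.87 to 6.67) for WT, 6.25 (4.78 to 8.27) for BMD and 28.6 (17.4 to 50.5) for DMD. These UMIs came from few nuclei: 68 of 203 (WT), 14 of 123 (BMD) and 15 of 90 (DMD) held any Spp1, and cluster 1 held 1063 of 1102, 277 of 291 and 383 of 387 of the UMIs. After thinning to 500 UMIs the shares with Spp1 were 28.6%, 8.94% and 15.6%, against 6.45%, 2.58% and 5.22% of the Cd163/Mrc1 macrophages and 1.85%, 0.586% and 1.78% of endothelial nuclei.

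Among the other genes ranked highest were Fn1, Vcan and Fam20c. Fn1, the matrix protein fibronectin, was at 2182, 701 and 1523 CPM (WT, BMD, DMD) against 439, 45.4 and 48.5 CPM, and Vcan, the proteoglycan versican, at 1616, 533 and 1392 CPM against 358, 79.4 and 104 CPM. Fam20c, a kinase of the secretory pathway that phosphorylates secreted proteins, was at 849, 462 and 442 CPM against 111, 79.4 and 55.4 CPM. The difference was there in each library, with the lowest level of the Cd163/Mrc1-low nuclei above the highest of the Cd163/Mrc1 macrophages for all 3 genes. The same held for Lrrk2, a large kinase of myeloid cells (916, 554 and 958 CPM against 102, 113 and 69.3 CPM), and for Fyn, a kinase of the Src family (953, 620 and 688 CPM against 188, 132 and 159 CPM). Lrrk2 was uneven over the clusters, at 4150 CPM in cluster 6, 1183 CPM in cluster 1 and 284 to 882 CPM in the others. Dgkg, a diacylglycerol kinase, was at 250, 120 and 352 CPM against 21.3, 0 and 20.8 CPM, so no fold is given for BMD. The other genes named by the ranking were Pla2g7 (the acetylhydrolase of platelet-activating factor), Edil3 (an integrin-binding matrix protein), Zfyve9, Treml4, Kcnn4 (a calcium-activated potassium channel), the myeloid transcription factor Cebpb, Coro1a (an actin-binding protein of leukocytes) and Bcat1 (an aminotransferase of branched-chain amino acids).

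The genes that stood lower included most of the resident macrophage genes compared. Stab1 (ENSRNOG00000018434), a scavenger receptor, was at 16.7, 97.9 and 81.9 CPM in the WT, BMD and DMD libraries, against 913, 1308 and 1303 CPM in the Cd163/Mrc1 macrophages, a ratio of the latter to the former of 54.8 (21.1 to 203), 13.4 (8.33 to 22.8) and 15.9 (8.46 to 33.7). Lyve1, a hyaluronan receptor, was at 66.6, 65.2 and 32.8 CPM against 653, 472 and 499 CPM. Selenop, a secreted selenium carrier, was at 4.16, 32.6 and 24.6 CPM against 192, 404 and 381 CPM. All 3 genes kept a low level in each library. Of the 8 resident macrophage genes compared, 7 were more than 2-fold lower in all libraries (Lyve1, Folr2, Stab1, Siglec1, Igf1, Selenop and Wwp1), beside 3.33% of all genes. Growth factor genes and receptors were also in the ranking, with Pdgfc, a ligand of platelet-derived growth factor receptors, at 12.5, 10.9 and 16.4 CPM against 273, 159 and 243 CPM, and Fgfr1 at 49.96, 70.7 and 49.1 CPM against 452, 586 and 617 CPM. The rest were Fat3, Psd3, Capn13, Slc10a6, Negr1, Fcgrt (the neonatal Fc receptor), Rarres1, Slc16a10, Prune2 and Eda.

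**Figure D4:**
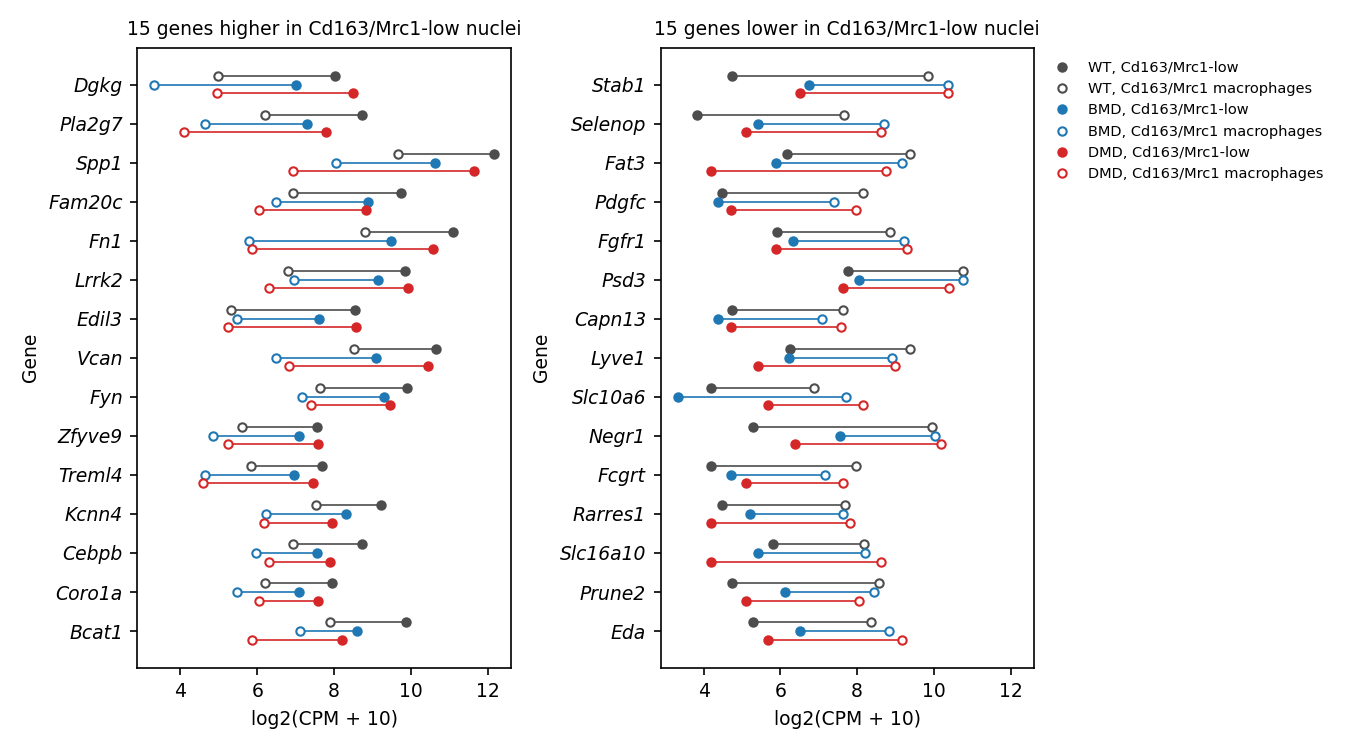
Levels of the 15 genes ranked highest (left) and the 15 ranked lowest (right) in Cd163/Mrc1-low nuclei (filled circles) against Cd163/Mrc1 macrophages (open circles) of the same library, joined by a line, as log2 of CPM plus 10. Each gene lies on the same side in all 3 libraries.

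The other gene groups are given here by their counts of genes past 2-fold in all 3 libraries. Over all genes 2.19% were higher and 3.33% lower by this measure, and the median log2 ratios were -0.07, -0.03 and -0.03 (WT, BMD, DMD). The complement list had 4 of 6 genes lower (among them C1qa, C1qb and C1qc) and none of them higher, with medians of -2.04, -1.16 and -1.62. Of the classical monocyte list, 3 of 4 genes were higher (Vcan, Fn1 and Lyz2), with medians of 1.64, 2.04 and 2.64, and of the further macrophage genes 5 of 15 were lower, with medians of 0.24, -0.43 and -0.41. Of the MHC class II list, 1 of 7 genes was past 2-fold, Ciita, the master activator of class II genes, which was higher, and the medians were 1.27, 1.51 and 0.62. Of the lipid-associated list, Spp1 was higher and the cholesterol exporter Abca1 lower among 13 genes, with medians of 0.78, 0.57 and 0.65. The phagocytosis list had Itgb2, the shared beta chain of leukocyte integrins, higher and the receptors Mertk and Stab1 lower, of 12. Transcription factors Cebpb and Runx2 were higher, of 16. In the integrin list, Itgb2 and the hyaluronan receptor Cd44 were higher and Itga9 lower, of 9. The inflammatory list had 1 of 5 genes higher (Il1rn), the lysosome list 1 of 16 higher (Lyz2) and the iron list 1 of 6 lower (Blvrb). The matrix list had Fn1 and Spp1 higher and Pdgfc and Igf1 lower, of 8. No gene of the interferon (3 compared), chemokine (5), glycolysis (6) or cell division (1) lists was past 2-fold in the same direction in all libraries.

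The comparison of genotypes within the Cd163/Mrc1-low nuclei asks whether these nuclei differ between a heart with normal, shortened or disrupted dystrophin. Dmd itself was at 608, 728 and 663 CPM in the WT, BMD and DMD libraries, far below its 8796, 7133 and 3884 CPM in free RNA. Since most of the gene remains in both deletion lines, the level of Dmd cannot check the labels. Of 2736 genes, 144 (5.26%) were more than 2-fold higher and 129 (4.71%) more than 2-fold lower in BMD than in WT. In DMD against WT, 116 (4.24%) were higher and 136 (4.97%) lower, and in DMD against BMD 65 (2.38%) were higher and 106 (3.87%) lower. In both BMD and DMD, 52 genes (1.90%) were more than 2-fold above WT and 54 (1.97%) below it. Both of these counts share the WT library. Among the 44 gene ratios named by the ranking, 44 kept their direction and 31 stayed past 2-fold without the nuclei over 5% mitochondrial UMIs. Those that did not included Alox5, Shtn1, Vat1, Adgre4, B3galnt1, Trerf1, Slc16a7, Gvin1, C1qc, Tnfaip8l3, Rps6ka1 and Nceh1.

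The 10 genes ranked lowest in both began with Stom, a membrane scaffold protein, at 183, 32.6 and 32.8 CPM (WT, BMD, DMD). Il1rn (ENSRNOG00000005871), the secreted antagonist of the interleukin-1 receptor, was at 495, 27.2 and 106 CPM in the WT, BMD and DMD libraries, from 119, 5 and 13 UMIs. WT was above BMD by 18.2-fold (7.60 to 57.2) and above DMD by 4.65-fold (2.62 to 8.996), and the counting intervals of WT and the others did not overlap. In the Cd163/Mrc1 macrophages Il1rn was at 81.1, 7.56 and 6.93 CPM. Csf1, the growth factor that binds Csf1r, was at 450, 103 and 98.3 CPM, 4.35-fold (2.66 to 7.51) and 4.58-fold (2.51 to 9.13) higher in WT. It did not show this order in the Cd163/Mrc1 macrophages, at 51.2, 64.3 and 69.3 CPM. The chemokine receptor gene Ccr1 was at 371, 81.5 and 73.7 CPM and the monocyte-attracting chemokine gene Ccl7 at 375, 97.9 and 81.9 CPM. Sdc4, a cell-surface heparan sulfate proteoglycan, was at 616, 87.0 and 147 CPM. In each case WT was the high library, and only for Il1rn did the interval of the ratio between BMD and DMD exclude 1. Il1rn, Dgki and Csf1 are among the leading genes of cluster 1, most of whose nuclei came from WT, and Ccr1 among those of cluster 4. The other genes were P2ry2 (a nucleotide receptor), Snx18 and Vat1.

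Within clusters the values of these genes rest on few UMIs, and for genes that lead a cluster they are not independent of the clustering. Of the 10 genes, 9 in cluster 0 and 10 in cluster 1 were lower in both BMD and DMD, 7 of them past 2-fold in each cluster. In cluster 1 Il1rn was at 1051, 39.4 and 331 CPM in the WT, BMD and DMD libraries, and Csf1 at 983, 236 and 257 CPM. For Il1rn these were 93, 1 and 9 UMIs. In cluster 0 the counts were small in WT too, at 2 to 20 UMIs a gene, with 0 to 13 in BMD and 0 to 5 in DMD, and Il1rn had 7, 0 and 1. Dgki was the exception in cluster 0, where it was at 43.1, 113 and 113 CPM. In nuclei with at most 5% mitochondrial UMIs Il1rn was at 439, 7.10 and 51.4 CPM, Ccr1 at 340, 56.8 and 51.4 CPM, and Csf1 at 560, 135 and 77.1 CPM, so the order of WT above both others was there too.

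The 10 genes ranked highest in both BMD and DMD included 5 of the genes that lead cluster 0 (Slc9a9, Ppp2r2b, Kcnt2 and Alox5) or cluster 6 (Zfp366). Slc9a9 (ENSRNOG00000008554) was at 287, 1566 and 950 CPM in the WT, BMD and DMD libraries, 5.45-fold (4.18 to 7.19) and 3.31-fold (2.43 to 4.52) above WT. In the Cd163/Mrc1 macrophages it was at 5402, 6860 and 6085 CPM, far above all 3 of these levels. Kcnt2, a sodium-activated potassium channel, was at 167, 641 and 410 CPM, and C1qa, a chain of complement C1q, at 37.5, 158 and 106 CPM. Alox5, the 5-lipoxygenase of leukotriene synthesis, was at 29.1, 201 and 106 CPM. All of these had higher levels in the Cd163/Mrc1 macrophages of each library than in the Cd163/Mrc1-low nuclei of that library. Zfp366, a transcriptional regulator of dendritic cells, was at 20.8, 190 and 147 CPM, but 17 of its 35 BMD UMIs came from 1 nucleus. The others were Ppp2r2b, AABR07059663.1, Samd9, Ncald and Shtn1. Within cluster 0, 9 of the 10 genes kept their direction and 0 were past 2-fold in both BMD and DMD. Slc9a9 there was at 1292, 2524 and 2185 CPM in the WT, BMD and DMD libraries. In cluster 1, 3 kept their direction in both, from few UMIs. In nuclei with at most 5% mitochondrial UMIs Slc9a9 was at 593, 1902 and 1413 CPM.

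**Figure D5:**
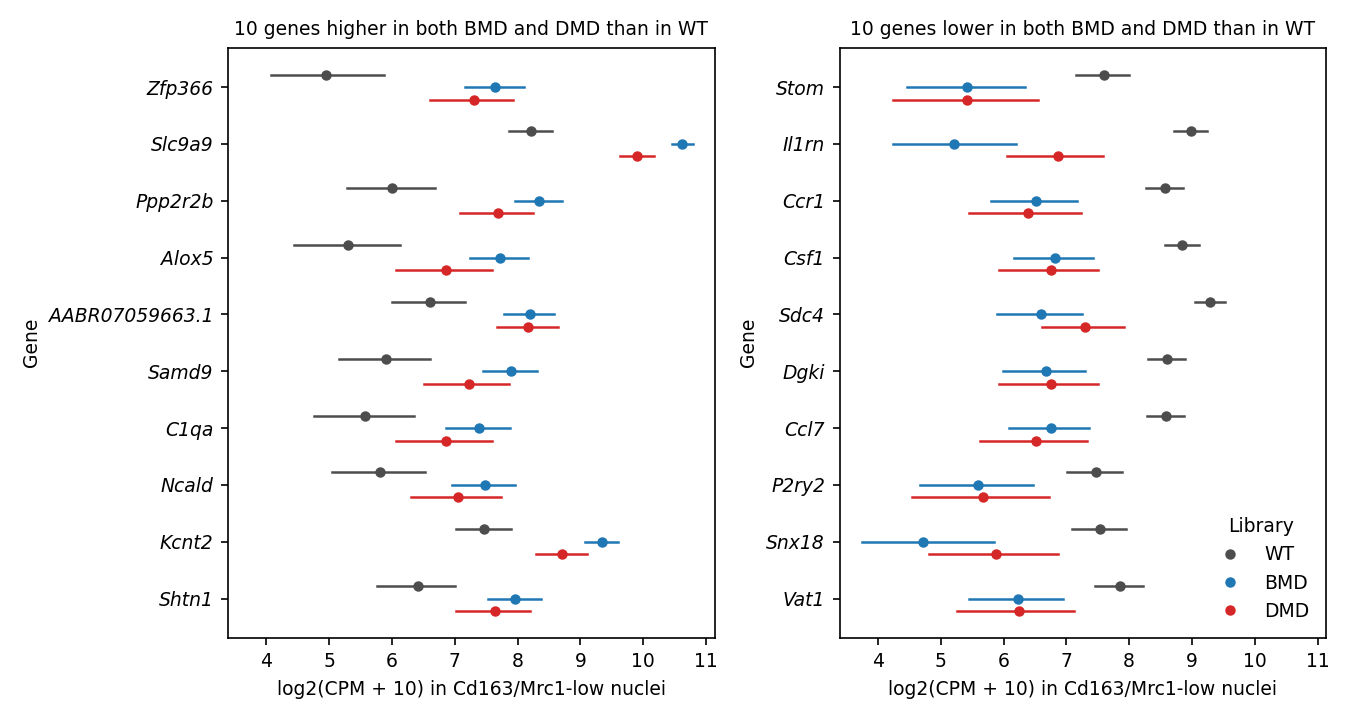
Levels of the 10 genes ranked highest (left) and the 10 ranked lowest (right) in both BMD and DMD against WT, in the Cd163/Mrc1-low nuclei of the 3 libraries, as log2 of CPM plus 10. Lines are 95% Poisson intervals of the summed UMIs, which cover counting error only. WT lies apart from both other libraries for Il1rn, Sdc4, Csf1 and Slc9a9.

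For Spp1, over all Cd163/Mrc1-low nuclei, WT was above BMD by 2.90-fold (2.55 to 3.31) and above DMD by 1.45-fold (1.29 to 1.63). Within cluster 1 it was at 12010, 10903 and 14077 CPM in the WT, BMD and DMD libraries, and Gpnmb at 3254, 3188 and 4374 CPM. These 2 genes lead that cluster, so their levels inside it were partly fixed by the clustering and are given as a description. Spp1 was also higher in nuclei over 5% mitochondrial UMIs, at 5486, 3437 and 6351 CPM, than in the others, at 3118, 1015 and 1362 CPM. Over the lipid-associated list, 2 of 15 genes were more than 2-fold higher in BMD than in WT (Apoe and Abca1) and 6 lower (Gpnmb, Spp1, Fabp5, Lgals3, Nceh1 and Cd63). Over all genes these shares were 5.26% and 4.71%. The median log2 ratio of the list was -0.90, beside 0.05 over all genes. In DMD 3 were higher (Fabp4, Apoe and Abca1) and 2 lower (Lpl and Pparg), beside 4.24% and 4.97% of all genes. The median there was -0.48 beside 0.03. Without the nuclei over 5% mitochondrial UMIs the medians against WT were -1.08 (BMD) and -1.28 (DMD), and that of DMD over BMD went from 0.43 to -0.0029. Apoe, the lipoprotein component of cholesterol export, was at 391, 951 and 803 CPM.

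The genes ranked highest for DMD against both other libraries were Ptpn13, Pde4d, Fcnb, Dscaml1, Adgre4 and Flt3. Pde4d, a phosphodiesterase of cyclic AMP, was at 237, 397 and 1048 CPM in the WT, BMD and DMD libraries, 4.42-fold (3.21 to 6.15) above WT and 2.64-fold (1.97 to 3.57) above BMD. Without the largest nucleus of each library the smaller of these ratios was no longer past 2-fold. Fcnb, which leads the monocyte-like cluster 2, was at 104, 125 and 303 CPM, and Adgre4, which leads cluster 5, at 133, 81.5 and 287 CPM. Flt3, the receptor that dendritic cells depend on, was at 87.4, 141 and 295 CPM, and Dscaml1, among the leading genes of cluster 6, at 54.1, 81.5 and 180 CPM. Each rests on 37 or fewer UMIs in DMD, and none of these 4 was past 2-fold against both libraries throughout: of 16 alternatives, Flt3 was in 6, Dscaml1 in 7, Adgre4 in 10 and Fcnb in 12. Ptpn13 was at 45.8, 59.8 and 238 CPM, with 15 of its 29 DMD UMIs from 1 nucleus, and was past 2-fold in 13 of the 16. The genes lower in DMD included Tbk1, a kinase of innate immune signalling (196, 228 and 65.5 CPM), Sh3pxd2b, an adaptor of invasive podosomes (387, 342 and 131 CPM), B3galnt1, Clip2 and Trerf1. Of the 16 alternatives, Tbk1 was past 2-fold in 15, Sh3pxd2b and B3galnt1 in 12, Clip2 in 11 and Trerf1 in 10.

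Among the genes ranked highest for BMD against both other libraries were genes of the interferon response. Parp14, an interferon-inducible ADP-ribosyltransferase gene, was at 108, 288 and 131 CPM in the WT, BMD and DMD libraries, 2.66-fold (1.64 to 4.43) above WT and 2.199-fold (1.24 to 4.12) above DMD. Of 4 interferon genes compared, 3 were more than 2-fold above WT in BMD (among them Parp14 and Rnf213) and 0 in DMD. Over all genes these shares were 5.26% and 4.24%. The median log2 ratios of the list were 1.21 and 0.18. These were 1.66 and 0.70 without the nuclei over 5% mitochondrial UMIs. Rnf213 was at 150, 332 and 164 CPM. The BMD library was not high in these nuclei alone. The interferon list summed to 833, 1614 and 950 CPM in the Cd163/Mrc1-low nuclei, to 1041, 1421 and 970 CPM in the Cd163/Mrc1 macrophages, to 989, 1837 and 1056 CPM in endothelial nuclei, to 588, 912 and 666 CPM in fibroblast nuclei, to 1240, 11314 and 2813 CPM in the 10, 21 and 63 neutrophil nuclei, and to 193, 191 and 173 CPM in cardiomyocyte nuclei. BMD was highest in all of these groups but the cardiomyocytes. Gvin1, an interferon-inducible GTPase gene, was at 58.3, 163 and 65.5 CPM, and C1qc at 87.4, 217 and 90.1 CPM. The stress-response factor gene Ddit3 was at 66.6, 348 and 32.8 CPM, but 58 of its 64 BMD UMIs came from the largest nucleus, and without it BMD was at 34.9 CPM. Slc16a7 and Tnfaip8l3 were the other genes ranked higher. Of 16 alternatives, Gvin1 and Tnfaip8l3 were past 2-fold in 13, C1qc and Ddit3 in 11 and Slc16a7 in 10. Lower in BMD were, among others, Vcan (1616, 533 and 1392 CPM), Rps6ka1, a ribosomal protein kinase (150, 27.2 and 172 CPM), Il1rn, Atp11a and Nceh1.

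The further gene groups are given by their counts, beside the shares over all genes above (5.26% higher and 4.71% lower in BMD, 4.24% and 4.97% in DMD). In the chemokine list, 3 of 4 genes (Ccr1, Ccl2 and Ccl7) were more than 2-fold below WT in both BMD and DMD, with medians of -1.68 and -1.63 (-0.64 and -1.44 without nuclei over 5% mitochondrial UMIs). Ccl2, which draws monocytes, was at 629, 212 and 270 CPM. In the iron list, Hmox1, which breaks down heme, and the ferritin genes Fth1 and Ftl1 were lower in BMD and Cp higher, of 5, and Ftl1 was lower in DMD, at 450, 114 and 147 CPM over the 3 libraries. The iron medians were -1.12 and -0.22 (-0.19 and -0.18 without nuclei over 5%). The lysosomal proteases Ctsb and Ctsd were lower in BMD (2 of 16), at 1170, 549 and 614 CPM and 691, 288 and 418 CPM, and 1 gene, Tfec, was higher in DMD. Among 16 transcription factors, those lower in BMD included Cebpb, Runx2 and Atf3, and those lower in DMD were Atf3 and Nfe2l2. In the MHC class II list no gene was lower, and RT1-Db1 and Ciita were higher in BMD and Ciita in DMD, of 7, with medians of 0.64 and 0.33 (1.14 and 1.26 without nuclei over 5% mitochondrial UMIs). Ciita was at 104, 245 and 254 CPM. The complement list had C1qa and C1qc higher in BMD and C1qa in DMD, of 5.

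Lists of cell type markers also had genes past 2-fold between the libraries. Over all genes 5.26% were higher and 4.71% lower in BMD than in WT, and 4.24% and 4.97% in DMD. In DMD against BMD these shares were 2.38% and 3.87%. Of 5 classical monocyte genes, 3 (Vcan, Fn1 and Cd244) were below WT in BMD and 0 in DMD, with medians of -1.23 and -0.21, and the median of DMD over BMD was 0.78. Of 4 non-classical monocyte genes, Spn was below WT in both, with medians of -0.62 and -0.23, and 0.71 for DMD over BMD. Of 6 conventional dendritic cell genes, Cadm1 was higher and Itgax lower in BMD, and Flt3, Cadm1 and Cst3 were higher and Itgax lower in DMD, with medians of 0.48 and 0.68, and -0.22 for DMD over BMD. Of 14 further macrophage genes, 3 were higher and 2 lower in BMD, and 1 was higher in DMD. Of 3 fibroblast genes, Col3a1 was above WT in DMD, with a median of 0.78, and 0 were past 2-fold in BMD. Col3a1 and Gsn were higher in DMD than in BMD, with a median of 1.58. The 1 pericyte or smooth muscle gene compared, Abcc9, was below WT in BMD (log2 ratio -1.16). It was higher in DMD than in BMD (1.01). The part of these markers in the results was not tested.

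The other lists are given beside the same shares over all genes. Axl, a receptor for dying cells, was higher in both (117, 288 and 262 CPM), with Fcgr1a lower in BMD and Fcgr2b in DMD, of 10 phagocytosis genes. Itga9 was higher and Itgax lower in both, of 10 integrin genes. Of 7 matrix genes, Igf1 was higher and Fn1 and Spp1 lower in BMD, and 0 passed 2-fold in DMD. Of 6 inflammatory genes, Il18 was higher and Il1rn lower in BMD, and Il1rn was lower in DMD. In the glycolysis list Ldha was lower in DMD, of 7 genes, and 0 were past 2-fold in BMD. The 1 cell division gene compared was not past 2-fold. Of 5 heart muscle genes compared, 4 (Tnnt2, Myh7, Tnni3 and Pln) were more than 2-fold above WT in BMD, with a median log2 ratio of 2.49, but this rested on the largest nucleus. Without the largest nucleus of each library 2 were (Tnnt2 and Tnni3), with a median of 0.65. In DMD 1 gene was (Tnnt2) in either case, with medians of 0.45 and 0.49. Tnnt2 was at 62.5, 424 and 188 CPM, and at 227 CPM in BMD without the largest nucleus. The part of free RNA in the differences between genotypes was not tested beyond its subtraction as an alternative.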

How the data were processed

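Nuclei of the heart apex were sorted and loaded for droplet sequencing. The methods and labels name a 3′ v3.1 kit, while the results text names a 5′ one, which was not followed here. Cell Ranger was used by the authors to align and count reads, on rn6 per the submitters' processing notes, and deposited raw UMI counts per gene for all barcodes. WT was taken from a deposited aggregate of the 3 libraries (Cell Ranger 6.0.1 in its header). BMD and DMD came from their own files (Cell Ranger 4), since the aggregate had thinned them to 76.1% and 92.9% of their UMIs. Genotype and any such difference in software cannot be told apart for WT. The libraries held 21609238 (WT), 21142346 (BMD) and 19215994 (DMD) UMIs.

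The barcodes with most UMIs were taken as nuclei, 9964 (WT), 6810 (BMD) and 7890 (DMD). No doublet or mitochondrial filter was applied (a Scrublet filter, which called 3, 3 and 5 members, and a mitochondrial limit were alternatives, with other thresholds of the rule, thinning, TMM scaling, subtraction of free RNA, the aggregate counts and other UMI minimums). UMIs were summed over the nuclei of a class and library and scaled to CPM. Ratios are of CPM plus 10, as log2, and count as past the fold beyond 2-fold. Genes needed 100 UMIs over both classes, or 50 over the members for genotypes. Intervals are exact Poisson (levels), conditional binomial (ratios), Clopper-Pearson (shares) and Newcombe (differences of shares). Nuclei were clustered with scanpy 1.11.5 and igraph 0.11.9 (Leiden resolution 0.5, 1000 variable genes, 20 components, 15 neighbours). A listed gene was raised in a cluster when at least 2-fold above the other members, and a name needed 3. Scaling factors (TMM) for an alternative came from edgeR 4.0.16. Genes were named by rank of the ratio nearest 0: 15 on each side between classes, 10 on each side for BMD and DMD together against WT, and 6 on each side for DMD and for BMD apart, if at least 2-fold above free RNA. The sums, ratios and counts were tested on simulated data. The members and gene lists were chosen with earlier results of these data known. The files give no gene coordinates. A few genes that the rules or lists would name are not reported here.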

Additional observations from a re-analysis of the deposited data

Results flagged for a closer look

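Dscaml1 and Adgre4 were picked out because their values for DMD and WT lay in opposite order in the Cd163/Mrc1-low nuclei and in the Cd163/Mrc1 macrophages. The log2 ratio of DMD over WT in the Cd163/Mrc1-low nuclei was 1.57 for Dscaml1, from 22 and 13 UMIs, and 1.05 for Adgre4, from 35 and 32 UMIs. In the Cd163/Mrc1 macrophages Dscaml1 had 0 UMIs in DMD and 4 in WT, and Adgre4 had 1 and 7, so no fold is given there. The difference between the 2 kinds of nuclei was not tested, and these counts are too few to read a direction in the Cd163/Mrc1 macrophages.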

How the results depend on the processing

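Alternatives changed 1 choice at a time, except that thinning to 1000 UMIs also left out the shallower nuclei, and no setting was tested for its cause unless it removes UMIs or genes by construction. Between genotypes no paired analysis was possible, because each genotype had 1 library. The 2 classes of nuclei were compared within each library. Of 570 values of the genes named between classes, 570 kept their direction and 567 stayed past 2-fold, and of 704 values of those named between genotypes 693 and 593. The share of nuclei in WT (2.04%) was 2.52% with at least 3 UMIs of the macrophage genes, 1.15% with 6, 1.76% with 0 UMIs of Cd163, Mrc1 and F13a1, 1.64% after thinning to 1000 UMIs and 0.906% without nuclei over 5% mitochondrial UMIs. In BMD (1.81%) it was 2.23% with 3, 1.06% with 6, 1.28% with 0 UMIs and 1.498% from the aggregate, and in DMD (1.14%) 1.55%, 0.634%, 0.824% and, with 2 UMIs allowed, 1.42%. The share of both macrophage sets was 50.2% with 6, 48.9% with 0, 62.0% with 2 and 39.8% without nuclei over 5% mitochondrial UMIs in WT, 27.4% and 45.4% with 0 and 2 UMIs in BMD, and 31.7% and 54.6% in DMD. BMD minus WT was 0.728 points without nuclei over 5%, and DMD minus WT 0.0709 points, and -0.520 points with 6 UMIs.

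The 65 genes higher between classes were 30 after thinning, 31 without nuclei over 5% mitochondrial UMIs, 35 with the UMI minimum doubled, 157 with a minimum of 1, and 40 to 78 with 1 library left out. The 99 lower were 41 and 183 (thinned, minimum of 1), and 89 to 109 with 1 library left out. BMD against WT (144 higher, 129 lower) gave 57 and 68 when thinned, 47 and 57 doubled, 1298 and 735 with a minimum of 1, and 81 lower without nuclei over 5%. DMD against WT (116, 136) gave 50 and 71 thinned, 38 and 47 doubled, 1048 and 959 with a minimum of 1, and higher 69 with 6 UMIs and 66 with 0. DMD against BMD (65, 106) gave 33 and 38 thinned, 25 and 26 doubled, 958 and 1442 with a minimum of 1, 108 higher with free RNA subtracted, 64 lower with 6 UMIs and 61 from the aggregate. Both against WT (52, 54) gave 18 and 31 thinned, 21 and 23 doubled, 387 and 267 with a minimum of 1, 32 and 33 with 0 UMIs, and 29 lower with 6. Ddit3 in BMD apart (log2 2.22) was -0.93 with 6 UMIs, -2.32 thinned and -0.066 from the aggregate. Leaving out the largest nucleus of each library was chosen after seeing the data, and with it the ratios of Pde4d, Flt3 and Ddit3 were no longer past 2-fold. No value between genotypes can be set against the spread between animals.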
